A study of Notophthalmus viridescens with 12 samples.

Results

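In the dorsal iris of the eastern newt, 23 of 856451 assembled transcripts were selected for a rise at 1 day after lens removal. In each, values were higher then than in intact tissue, at 6 hours and at 4 days. The transcripts were selected on these measured values, the same values that are described here, and they are referred to as the 1 day pulse. A transcript was taken if its mean abundance at 1 day was 50 or more and if the mean log2(value + 1) of the other 3 groups lay within 1.5 of each other. In addition, its gap, the lowest log2(value + 1) of the 3 libraries at 1 day minus the highest of the other 9 libraries, had to be 1.5 or more.

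Bulk RNA sequencing was performed on dorsal irises of adult, wild-caught Notophthalmus viridescens at 4 time points, with 3 libraries each. The groups were intact irises, and irises at 6 h post-lentectomy (hpl), at 1 day post-lentectomy (dpl) and at 4 dpl. Lentectomy is the surgical removal of the lens under tricaine anesthesia, and each library pooled the dorsal irises of both eyes of 3 or 4 animals, so differences among the animals of a pool were not seen. For each library, 108 ng of total RNA was used, with 4 h of enzymatic depletion of abundant transcripts and 13 PCR cycles. No strain, age or further agent was given for any group.

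The newt regrows a complete lens after lentectomy. The new lens arises from pigment epithelial cells of the dorsal iris, which lose their pigment, re-enter the cell cycle and transdifferentiate into lens cells. The first days after surgery, before a lens vesicle is visible, are a phase of wound response in which blood-borne immune cells also reach the eye. In bulk tissue, a change in the RNA per cell and a change in the number of cells of a type cannot be told apart.

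Each value was the normalised abundance of a transcript and kept no read depth, so its counting error is unknown. Library sums ran from 2.77e+07 to 4.08e+07 and library medians from 7.94 to 8.54. The table gave IDs but no gene names, and a name was found for 0 of them. Hence no role could be given to any of the 23 transcripts, the dorsal iris label could not be checked against marker genes, and no sequence was printed. A single gene may have several IDs, as isoforms or fragments. By the rule set for naming, 4 transcripts are given by ID, and the others are identified by their rank in the order of the gap.

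Selection narrowed quickly. A mean of 50 or more at 1 dpl was met by 63497 transcripts, and 50197 of these also had the other 3 groups within 1.5 of each other. A gap above 0, meaning that all 3 libraries at 1 dpl were above the other 9, was found for 341 of them, and 23 reached a gap of 1.5. Without regard to abundance, 83 transcripts met the gap and the window, so 60 were left out by the mean alone, the nearest with means of 49.3, 47.6 and 45.9 at 1 dpl. The window alone left out 7, the nearest at 1.501, 1.549 and 1.885. The 3 members with the smallest gap had 1.60, 1.57 and 1.55, and the first 3 transcripts outside the threshold had 1.34, 1.31 and 1.30. Those at 1.31 and 1.30 carried ID numbers only 2 and 1 away from that of a member.

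The transcript with the largest gap was 5_34738095. At 1 dpl it had 327, 8.66 and 8.33, and it was listed at 0 in every library of the other 3 groups (mean at 1 dpl 115 ± 184, SD, n = 3). Its mean over the threshold of 50 therefore rested on 1 dpl replicate 1 alone. A value listed at 0 can be a failed estimate, and no fold is given.

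The second largest gap, 2.55, belonged to 1_3771412, whose 3 values at 1 dpl were the most alike among the 23. It had 1.04, 2.06 and 1.78 in intact irises, 0.616, 3.14 and 6.89 at 6 hpl, 62.2, 56.3 and 53.4 at 1 dpl, then 3.45, 8.30 and 0.749 at 4 dpl. The coefficient of variation (SD as a percent of the mean) at 1 dpl was 7.83%. Its lowest value at 1 dpl was 6.44 times its highest value elsewhere. The log2 difference was 4.49 for 1 dpl against intact, 3.95 for 1 dpl against 6 hpl and −3.80 for 4 dpl against 1 dpl (SE 0.62 each, by limma).

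The lowest levels at 4 dpl relative to 1 dpl, after the first of these transcripts, were those of 2_11871052 and 5_38064256. The transcript 2_11871052 had 0.349, 7.73 and 7.25 in intact irises, 9.19, 4.50 and 0 at 6 hpl, 52.3, 77.4 and 42.7 at 1 dpl, then 2.61, 1.51 and 0.491 at 4 dpl. Its log2 difference of 4 dpl against 1 dpl was −4.57 (SE 0.77). The selection required that the 3 values at 4 dpl lie below those at 1 dpl. All 3 values at 4 dpl were also below the 2 higher intact values, with a log2 difference of −0.95 for 4 dpl against intact that did not pass the test (adjusted p = 0.520 by limma).

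The transcript 5_38064256 was more abundant. It had 4.20, 47.3 and 15.2 in intact irises, 24.6, 8.19 and 0 at 6 hpl, 229, 296 and 173 at 1 dpl, then 7.46, 17.3 and 5.93 at 4 dpl. The values outside 1 dpl were therefore far from uniform, and intact replicate 2 was the highest of the 9. Its log2 differences were 3.84 for 1 dpl against intact, 5.21 for 1 dpl against 6 hpl and −4.48 for 4 dpl against 1 dpl (SE 0.85 each).

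The 3 highest means at 1 dpl were those of ranks 21, 12 and 22. Rank 21 had 22.4, 23.0 and 17.0 in intact irises, 16.1, 32.5 and 24.0 at 6 hpl, 492, 107 and 357 at 1 dpl, then 34.7, 23.6 and 30.4 at 4 dpl. Its 9 values outside 1 dpl lay close together, while those at 1 dpl differed widely (319 ± 195, SD, n = 3). Rank 22 had 2.63, 45.9 and 13.8 in intact irises, 19.8, 19.2 and 0 at 6 hpl, 186, 322 and 138 at 1 dpl, then 13.1, 22.4 and 25.3 at 4 dpl. As for 5_38064256, which was rank 12 (233 ± 61.7 at 1 dpl), intact replicate 2 was the highest library outside 1 dpl and 1 dpl replicate 2 the highest of all.

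**Figure D1:**
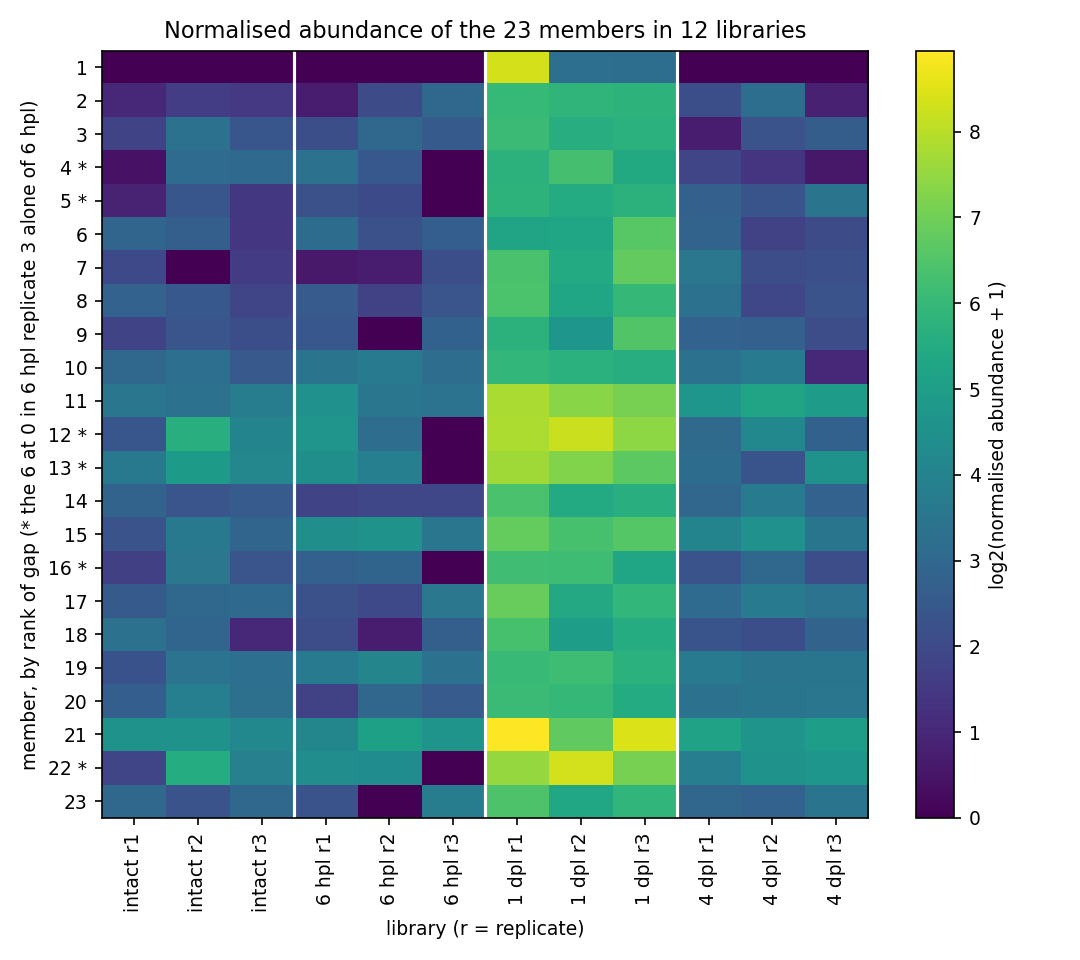
Each row is 1 of the 23 transcripts, in order of gap, and each column 1 of the 12 libraries, with colour giving log2(normalised abundance + 1). All 23 were highest in the 3 libraries at 1 dpl, which the selection required, and 6 rows marked with an asterisk were listed at 0 in 6 hpl replicate 3 but in neither other 6 hpl library.

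Most of the pulse lay close to the mean of 50 at 1 dpl that the selection required, a level reached by 63497 of the 856451 transcripts. The mean at 1 dpl ran from 50.4 to 319 with a median of 61.1, 14 members lay under 65 and 6 reached 100. Group means outside 1 dpl reached at most 22.3 in intact irises, 24.2 at 6 hpl and 30.5 at 4 dpl, with medians of 5.65, 5.03 and 7.39. Leaving out the member listed at 0 in all 9 libraries outside 1 dpl, the lowest value at 1 dpl was between 3.01 and 6.44 times the highest of the other 9, with a median of 3.69 (n = 22). Over the same 22, the ratio of means had a median of 11.3 for 1 dpl over intact (6.17 to 49.0), 13.2 for 1 dpl over 6 hpl (5.09 to 51.9) and 11.0 for 1 dpl over 4 dpl (5.66 to 37.3). Rank 7 gave the highest ratio over intact and over 6 hpl. It had 2.89, 0 and 1.94 in intact irises, 0.545, 0.589 and 3.42 at 6 hpl, 82.0, 43.5 and 111 at 1 dpl, then 10.7, 3.37 and 3.57 at 4 dpl.

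Summed over the 23 members, abundance was 123, 266 and 153 in intact irises, 202, 178 and 129 at 6 hpl, 2888, 1904 and 1963 at 1 dpl, then 207, 229 and 211 at 4 dpl. This came to at most 0.0081% of a library's total. The median member had 82.0, 51.2 and 58.2 at 1 dpl, against 4.20, 7.73 and 4.92 in intact irises.

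The 3 libraries at 1 dpl did not contribute alike. Replicate 1 was the highest in 16 members, replicate 2 in 4 and replicate 3 in 3, whereas among all transcripts with a mean of 50 or more the shares were 38.0%, 21.9% and 40.1%. Replicate 1 was the lowest in 1 member, and replicates 2 and 3 in 11 each, against 32.9%, 48.9% and 18.2% of those transcripts. Replicate 2 also had the lowest total of the 12 libraries. With replicate 2 left out, 94 transcripts met the same criteria, 22 of the 23 among them. The gap uses the lowest library at 1 dpl, so leaving out a library at 1 dpl cannot lower it. The mean at 1 dpl changes as well. Without replicate 3 there were 40, with 20 of the 23, and without replicate 1 there were 21, with 16. The coefficient of variation at 1 dpl ran from 7.83% to 160%, with a median of 33.4%.

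All 3 comparisons with 1 dpl had been used to choose the members, and their calls are given as a description, with the share of all 855254 transcripts tested that passed the same threshold beside them. Calls were made by limma on log2(value + 1) at an adjusted p of 0.05 (Benjamini-Hochberg). All 23 were called higher at 1 dpl than in intact irises (1.94% of all transcripts), with a median log2 difference of 3.52 and a range of 2.56 to 5.05. Against 6 hpl, 22 were called higher at 1 dpl (0.263% of all transcripts), with a median of 3.86 and a range of 2.27 to 5.21. At 4 dpl, 21 were called lower than at 1 dpl (0.210% of all transcripts), with a median of −3.20 and a range of −4.95 to −2.39. Without 4 dpl replicate 1 this last count was 12, and without 1 dpl replicate 1 it was 13. Over all transcripts, 1051 and 890 were then called lower at 4 dpl, against 1799 with all libraries. The median over all transcripts tested was −0.01, −0.04 and 0 in the same 3 comparisons, and 0.858% of all transcripts in the table had a gap above 0.

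The 3 low groups were held within a window by the selection, and within it they were not the same. The smallest mean log2 level was at 6 hpl in 13 members, in intact irises in 6 and at 4 dpl in 4, where the member listed at 0 throughout was counted at the first of its tied groups. Of these 13, ranks 5, 9, 12, 13, 16, 22 and 23 were listed at 0 in 1 library at 6 hpl. A single 0 lowers a mean log2 level, as in rank 22, with 19.8 and 19.2 in its other libraries at 6 hpl. The comparisons of 6 hpl with intact and with 4 dpl carry the same zeros. The highest of the 3 low levels was at 4 dpl in 13 members, at 6 hpl in 5 and in intact irises in 4. At 4 dpl against intact, 15 members were higher and 7 lower, with a median log2 difference of 0.32 and a range of −0.95 to 1.45. At 6 hpl against intact, 8 were higher and 14 lower, with a median of −0.16 and a range of −1.44 to 1.23. At 4 dpl against 6 hpl, 16 were higher and 6 lower, with a median of 0.59 and a range of −0.76 to 1.48. The median over all transcripts tested was −0.03 for 4 dpl against intact, −0.01 for 6 hpl against intact and −0.05 for 4 dpl against 6 hpl. These 3 comparisons share libraries with one another.

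Of these differences between low groups, 1 passed the test. Rank 11 had 10.5, 9.10 and 12.8 in intact irises, 21.8, 10.5 and 9.49 at 6 hpl, 222, 161 and 136 at 1 dpl, then 25.2, 36.3 and 30.1 at 4 dpl. Its 3 values at 4 dpl were all above its 3 intact values, with a log2 difference of 1.42 (adjusted p = 0.0324 by limma), and it was the only member called for 4 dpl against intact (6.25% of all transcripts called in either direction). That call was lost without intact replicate 1 or 2, or without any of the 3 libraries at 4 dpl. By limma, 0 members were called for 6 hpl against intact (2.78% of all transcripts) and 0 for 4 dpl against 6 hpl (3.90%), while 1 and 5 had an unadjusted p under 0.05 (15.4% and 18.1% of all transcripts). The window limited the size that these differences could have.

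Some members had intermediate levels in a low group. Rank 15 had 3.91, 11.3 and 6.50 in intact irises, 20.8, 22.7 and 10.3 at 6 hpl, 112, 80.9 and 94.0 at 1 dpl, then 15.4, 22.1 and 10.1 at 4 dpl. It had the largest positive difference of 6 hpl against intact, 1.23, and its values in those 2 groups overlapped. Rank 14 had 6.27, 4.07 and 4.92 in intact irises, 2.55, 2.77 and 2.74 at 6 hpl, 83.1, 43.7 and 49.0 at 1 dpl, then 6.67, 11.7 and 6.04 at 4 dpl. Its 3 values at 6 hpl were below every intact and every 4 dpl value, with a log2 difference of −0.71 for 6 hpl against intact that did not pass the test.

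Zeros were unevenly spread. Listed at 0 in no library were 13 members, in 1 library 9 and in all 9 libraries outside 1 dpl 1. In 6 hpl replicate 3, 7 members were listed at 0, against 1 to 3 in each of the other 8 libraries outside 1 dpl and 0 in the 3 at 1 dpl. Over the whole table, 2.70% of transcripts were listed at 0 in 6 hpl replicate 3, within the range of 1.22% to 4.10% over the 12 libraries. Among the 63497 transcripts with a mean of 50 or more at 1 dpl, 42 were at 0 in that library. These transcripts were not matched to the members for level outside 1 dpl. The selection held the members there well below their values at 1 dpl. The count of 42 is therefore not a like background for the members, and it was not made for any other library.

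Ranks 4, 5, 12, 13, 16 and 22 were listed at 0 in 6 hpl replicate 3 but in neither other 6 hpl library. They were set apart after their values had been seen, and no test was made on them. Rank 13 had 11.2, 28.4 and 16.8 in intact irises, 21.1, 13.5 and 0 at 6 hpl, 204, 151 and 102 at 1 dpl, then 7.90, 3.97 and 22.4 at 4 dpl. Rank 16 had 2.24, 10.6 and 4.13 in intact irises, 5.75, 6.43 and 0 at 6 hpl, 71.9, 70.2 and 38.5 at 1 dpl, then 3.89, 7.22 and 3.28 at 4 dpl. In both, as in ranks 4, 5, 12 and 22, intact replicate 1 was the lowest and intact replicate 2 the highest intact library. This order was not particular to them, since ranks 2, 3, 9, 15, 19 and 20 had it too.

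These 6 transcripts moved together across libraries outside 1 dpl. Over the 9 libraries, Pearson's r of log2(value + 1) between 2 of the 6 had a median of 0.75 (0.32 to 0.94, 15 pairs), against 0.06 (−0.79 to 0.86, 120 pairs) between 2 of the 16 others with values there. Much of this rested on 6 hpl replicate 3, which had been used to set them apart. Over the 8 libraries without it, the median was 0.42 (−0.09 to 0.85) for the 6 and 0.09 (−0.83 to 0.86) for the others. The pairs share libraries and, possibly, reads.

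The 6 also differed from the rest in the order of the libraries. Intact replicate 2 was the highest library outside 1 dpl in 4 of the 6, and in 2 of the 17 others. Of these 17, 1 was listed at 0 in all 9 libraries outside 1 dpl and had no highest library there. At 1 dpl, replicate 3 was the lowest in 5 of the 6 and in 6 of the 17, while replicate 1 was the highest in 3 of the 6 and in 13 of the 17. These counts are a description.

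**Figure D2:**
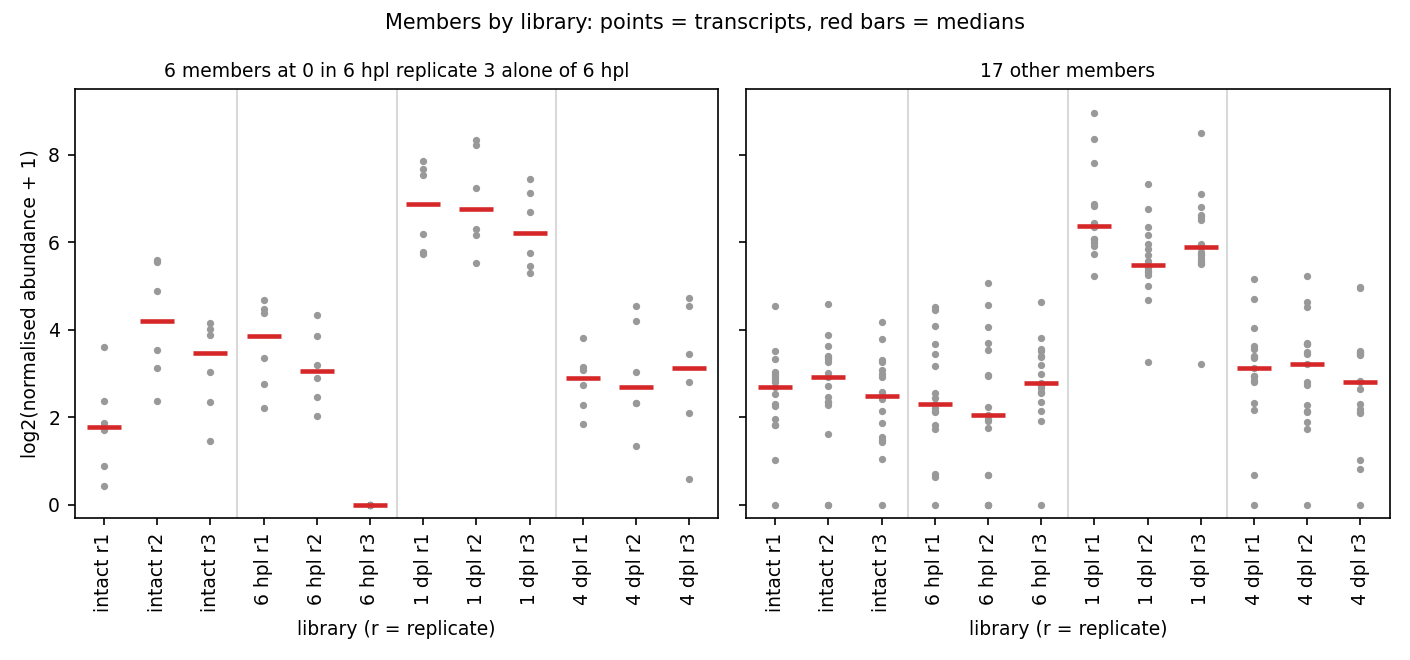
Points are transcripts and red bars are medians of log2(normalised abundance + 1) in each of the 12 libraries, for the 6 members at 0 in 6 hpl replicate 3 alone of the 6 hpl libraries (left) and the 17 other members (right). At 1 dpl the 17 had their highest median in replicate 1 and their lowest in replicate 2, whereas the 6 had their lowest in replicate 3.

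The selection did not use the transcript ID. IDs began with a digit from 1 to 9, and numbers ran upward with this digit without overlap. Among the 23 members, 11 IDs began with 5 and 6 with 6, which together made 73.9%. The other members were 2 with 7 and 1 each with 1, 2, 3 and 8, and none began with 4 or 9. These 2 digits made up 22.6% of all transcripts, 25.2% of those with a mean of 50 or more at 1 dpl and 24.6% of those that also met the window. Among the 341 transcripts that in addition had a gap above 0, the share was 55.4%. Reads of each time point had been assembled separately and the assemblies merged, but no source used here says whether the digit marks the assembly of a time point. Over the whole table, the highest group mean was at 1 dpl in 42.4% of transcripts with these digits and in 15.0% of the others. Under all 21 other settings and left-out libraries tried for the selection, the share lay between 50.0% and 88.9%.

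**Figure D3:**
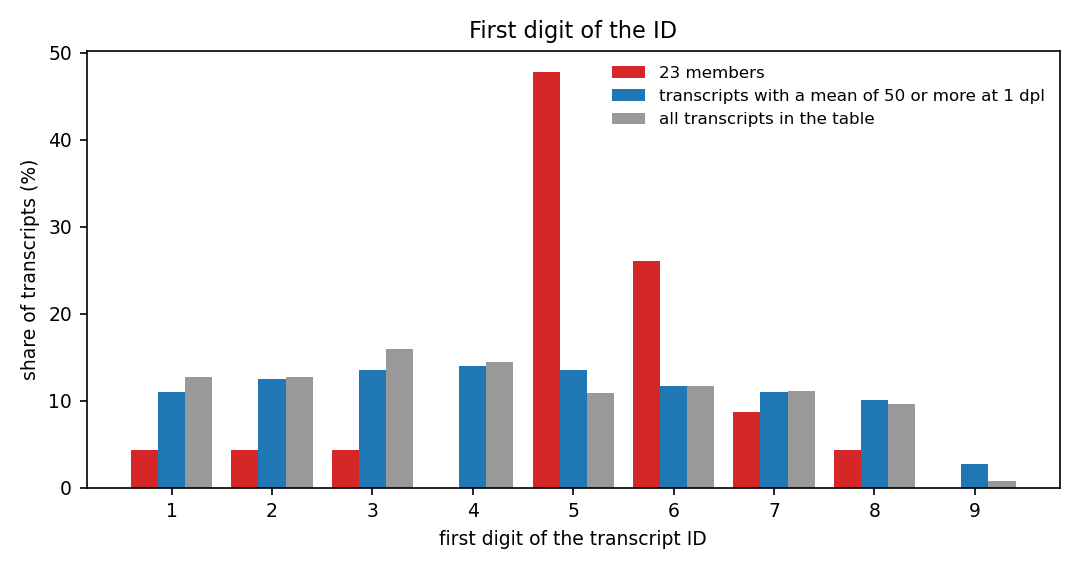
Bars give the percent of transcripts whose ID begins with each digit, for the 23 members (red), for transcripts with a mean of 50 or more at 1 dpl (blue) and for all transcripts (grey). The digits 5 and 6 held 73.9% of the members, against 25.2% of transcripts with a mean of 50 or more at 1 dpl.

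Transcripts with an ID number close to that of a member were examined next. The selection had not used the ID number, but it had been applied to these transcripts as to all others. Those counted here had failed it, among them the transcripts just outside the threshold with gaps of 1.31 and 1.30. Their levels at 1 dpl are therefore not independent of the selection. A distance of up to 10 was chosen after the values had been seen. There were 44 such neighbours beside 17 of the members, the other 6 members had none, and ranks 5 and 20 lay 4 numbers from each other. Rank 5 had 53.5, 44.9 and 52.8 at 1 dpl, and rank 20 had 66.7, 61.1 and 44.5. Whether neighbours are parts or forms of 1 gene, and whether they share reads, was not tested.

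Most neighbours were highest at 1 dpl. The highest group mean was at 1 dpl in 37 of the 44, against 21.2% of all transcripts. That share was 42.4% for IDs beginning with 5 or 6 and 15.0% for the others, and the comparison was not matched for the digit. A gap above 0 was found in 26, against 0.858% of all transcripts, a gap of 1 or more in 12 and a gap of 1.5 or more in 3. These 3 had means under 50 at 1 dpl and missed the selection on that account. In all, 32 of the 44 had means under 50. The 9 libraries outside 1 dpl leave out the step the members were chosen for. Over these, r of log2(value + 1) between a neighbour and its member had a median of 0.37 and ran from −0.66 to 0.94 (46 pairs). The median was 0.58 for neighbours of the 6 members at 0 in 6 hpl replicate 3 (25 pairs). For neighbours of the other members it was 0.11 (21 pairs). These medians include 6 hpl replicate 3, which had been used to set the 6 members apart. Of the neighbours of the 6, 17 were at 0 there as well. The 2 medians are therefore not a like comparison, and r without that library was not computed for neighbours. Over the same 9 libraries, the median was 0.20 between consecutive transcripts of the table within 10 numbers of each other (219064 pairs) and 0.087 between those over 100 apart (173324 pairs). With the 3 libraries at 1 dpl included, the median between a neighbour and its member was 0.82, and this value rests in part on the selection.

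By limma, 22 of the 44 neighbours were called higher at 1 dpl than in intact irises (1.94% of all transcripts), 18 higher at 1 dpl than at 6 hpl (0.263%) and 10 lower at 4 dpl than at 1 dpl (0.210%). The median log2 differences were 2.66, 2.74 and −2.19. The counts depended on the pseudocount and on single libraries. With a pseudocount of 0.1 they were 7, 3 and 0, with 34, 29 and 23 neighbours at an unadjusted p under 0.05. Calls over all transcripts also fell with that pseudocount, from 16608, 2247 and 1799 to 12456, 799 and 853. For 1 dpl against 6 hpl the count was 4 without 6 hpl replicate 3. It was between 7 and 10 without any 1 of the 3 libraries at 1 dpl or of the other 2 at 6 hpl. Over all transcripts, 790 were called higher without 6 hpl replicate 3, and 692 to 2015 without 1 of those other libraries. For 1 dpl against intact it was between 10 and 13 without intact replicate 1 or 3 or without 1 dpl replicate 1 or 2. For 4 dpl against 1 dpl it was between 4 and 6 without 1 dpl replicate 1 or 2 or without any 1 library at 4 dpl. With the same libraries left out, calls over all transcripts were 9817 to 15536 for 1 dpl against intact. For 4 dpl against 1 dpl they were 890 to 1287. Between the low groups, 1 neighbour was called for 6 hpl against intact (2.78% of all transcripts), 3 for 4 dpl against intact (6.25%) and 0 for 4 dpl against 6 hpl (3.90%), where 5 had an unadjusted p under 0.05 (18.1% of all transcripts). The counts of 1 and 3 are near the background.

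Neighbours of the 6 members at 0 in 6 hpl replicate 3 were also counted apart. There were 25 of them, 17 also listed at 0 in that library. This compares with 1 of the 19 neighbours of the other members and 2.70% of all transcripts. That library had been used to set the 6 members apart, and the 2.70% was not matched for abundance. The highest mean was at 1 dpl in 24 of the 25, against 13 of the 19 (21.2% of all transcripts). A gap above 0 was found in 20 of the 25, against 6 of the 19 (0.858% of all transcripts). Called in the 3 comparisons with 1 dpl were 16, 14 and 9 of the 25, against 6, 4 and 1 of the 19. The shares of all transcripts were 1.94%, 0.263% and 0.210%. Median log2 differences were 2.91, 3.03 and −2.83 in the 25, against 1.42, 1.01 and −0.83 in the 19. These 25 lay beside 6 members, so they are not 25 separate cases.

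**Figure D4:**
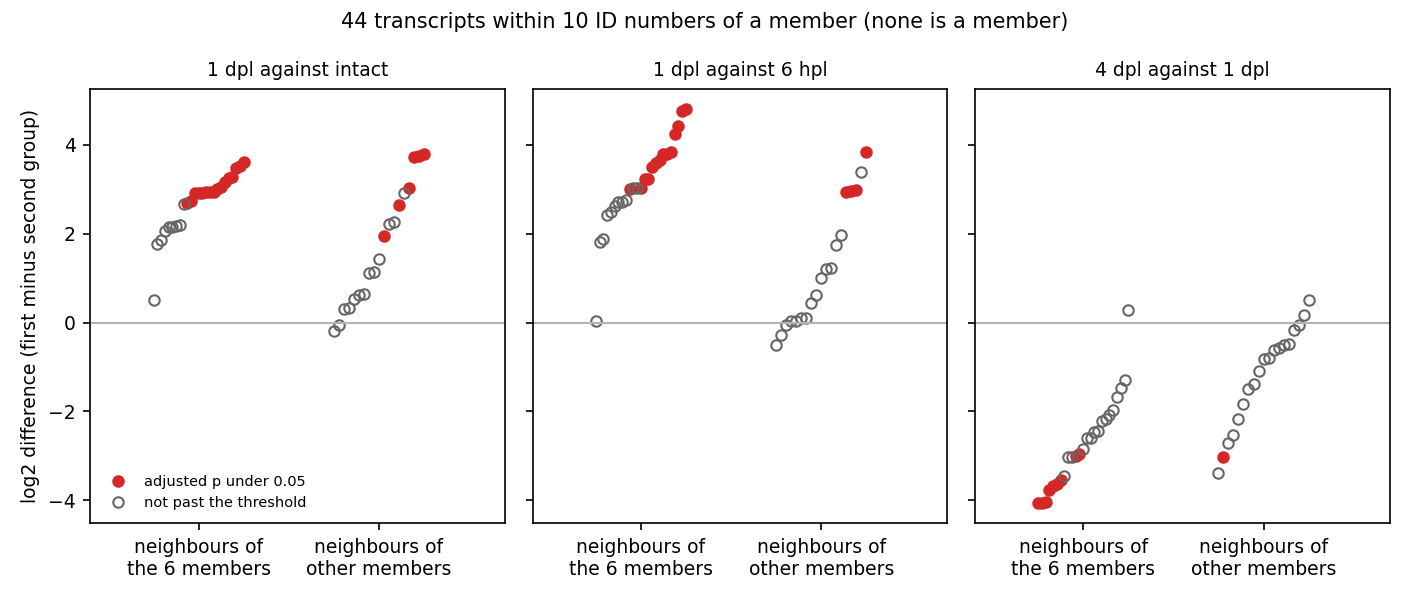
Each point is 1 of 44 transcripts within 10 ID numbers of a member, with its log2 difference for 1 dpl against intact (left), 1 dpl against 6 hpl (middle) and 4 dpl against 1 dpl (right), in order of size, filled red where the adjusted p was under 0.05. Neighbours of the 6 members at 0 in 6 hpl replicate 3 had medians of 2.91, 3.03 and −2.83, against 1.42, 1.01 and −0.83 for those of the other members.

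The groups of neighbours can be followed by member. Beside 5_38064256, 4 neighbours had means of 40.6, 27.7, 73.5 and 13.4 at 1 dpl, and their means in the other groups did not exceed 10.8. Beside rank 13, 4 neighbours had means of 74.6, 13.6, 8.08 and 88.8 at 1 dpl, and all 4 were listed at 0 in 6 hpl replicate 3. The neighbour with a mean of 13.6 was also at 0 in 6 hpl replicate 1. That with a mean of 8.08 was at 0 in every library at 6 hpl and at 4 dpl. Beside 2_11871052, 5 neighbours had means between 10.3 and 91.8 at 1 dpl, with r between 0.21 and 0.63 to it over the 9 libraries outside 1 dpl. These 9 libraries include 6 hpl replicate 3, where 2_11871052 was itself listed at 0. The 4 neighbours of 1_3771412 had r between −0.25 and 0.55 to it over these libraries. The neighbour 2 numbers before it had means of 554 in intact irises, 1033 at 6 hpl, 1089 at 1 dpl and 1516 at 4 dpl. Hence, a transcript many times more abundant than this member, and without its pulse, lay beside it in the numbering.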

How the data were processed

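Dorsal iris RNA of 12 libraries was sequenced. According to the study's methods, the authors trimmed reads with Trim Galore, removed ribosomal reads with Bowtie2 against Silva, assembled each condition with Trinity, merged the assemblies with DRAP and quantified transcripts with Salmon, averaging its inferential replicates. No source used here gives the versions. The deposited values were treated as a signal, a normalised abundance: they are named TPM by the authors, but library sums were far above the fixed sum of TPM. The study's own test needs the inferential replicates, which were not used here.

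Libraries were grouped by the time point in the labels. The members and lists were chosen with earlier results of these data known. Values were transformed as log2(value + 1) and fitted as group means over all 12 libraries with limma 3.58.1 (R 4.3.3; empirical Bayes, variance trend, two-sided), for 855254 transcripts at 1 or more in at least 3 libraries, with Benjamini-Hochberg adjustment over all of them. The limma step was tested on simulated data, drawn independently from a normal distribution for each transcript. The simulation held no selection on the gap, so it does not cover the members as they were chosen. The other steps used Python 3.11.15, pandas 2.3.3 and numpy 2.4.6. Transcripts named by ID were the 2 with the largest gap and, of the rest, the 2 with the most negative difference of 4 dpl against 1 dpl. Alternatives were another pseudocount, filter, scaling, variance model and sample set, a replicate block, other limits of the selection and leaving out each library. Each library is a separate pool of animals. Gene lists and marker genes could not be applied to unnamed IDs.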

Additional observations from a re-analysis of the deposited data

How the results depend on the processing

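How many transcripts met the selection moved with its limits: 14 with a pseudocount of 0.1, 52 with a mean of 20 or more, 6 with a mean of 100 or more, 13 with low groups within 1, 6 with a gap of 2 or more, and 20 to 94 with 1 library left out. With equal library totals there were 27, of which 20 were among the 23 members, and with scaling on abundant transcripts 21, of which 17 were. A pseudocount of 0.1 lowered the members called to 9 for 1 dpl against 6 hpl and to 10 for 4 dpl against 1 dpl. Over all transcripts it lowered the calls in the same directions from 2247 to 799 and from 1799 to 853. With 1 library left out, the members called ran from 12 to 23 for 4 dpl against 1 dpl, from 16 to 23 for 1 dpl against 6 hpl and from 19 to 23 for 1 dpl against intact. For 4 dpl against intact they ran from 0 to 1, and were 0 without a variance trend, with equal library totals and with scaling on abundant transcripts. In the 3 comparisons with 1 dpl, 0 of 434 values of the 23 members in each comparison changed sign over 19 alternatives. The selection had set every library at 1 dpl above the other 9, by a gap of 1.5 or more. The signs were therefore fixed in advance under these alternatives and say nothing of robustness. The 3 fits without a library at 1 dpl gave no value for 5_34738095. The median of the members for 6 hpl against intact ran from −0.34 to 0 with 1 library left out. The 4 transcripts named by ID lost calls in the comparisons with 1 dpl, among others under a pseudocount of 0.1. With 1 library left out, 1_3771412 lost none of its 3 calls, and the other 3 transcripts each lost at least 1. The cause was not tested. With a replicate block, 23, 23, 22, 0, 1 and 0 members were called in the comparisons of 1 dpl with intact, 1 dpl with 6 hpl, 4 dpl with 1 dpl, 6 hpl with intact, 4 dpl with intact and 4 dpl with 6 hpl. The replicate numbers showed no strong pairing of the libraries. Deviations from group means correlated at −0.19 to 0.05 over 18 pairs of equal number and at −0.10 to 0.22 over 36 pairs of different number. Of 12 libraries, 5 correlated best with their own number. A weak pairing would not be seen in this way. The table keeps no read depth, so counting error behind each value is unknown.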
